A study of Mus musculus with 12 samples.

Results

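The epithelium of the choroid plexus was followed through 10 of its genes in RNA from mouse hippocampus: Ttr, Folr1, Aqp1, Slc4a5, Clic6, Kcnj13, Kcne2, Kl, Enpp2 and Otx2. They were chosen by symbol, each matched 1 row of a table of 29454 genes, and each was above 0 in all 12 libraries. The 3 WT libraries are from pups that carry neither transgene. The 3 CAMK libraries are from littermates with the CaMKIIα-tTA driver, in which the CaMKIIα promoter, active in forebrain neurons, makes the tetracycline transactivator. The 6 CX3CL1-ct libraries are from littermates that carry this driver together with a C-terminal CX3CL1 transgene. CX3CL1 is a membrane-bound chemokine of neurons. Every CX3CL1-ct pup also carried the driver. All pups have the strain label C57/BL6, their age is postnatal day 4 in the sample labels and postnatal day 0 in the design text, and doxycycline is not mentioned. Separate animals are not named for the libraries, and the p-values therefore cover the spread between libraries only.

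The choroid plexus is a folded sheet of epithelium over a core of vessels that hangs into the brain ventricles and secretes cerebrospinal fluid. In the lateral ventricle it is attached along the fimbria, at the edge of the hippocampus. Its cells carry ions and water across the sheet, export carrier proteins and vitamins into the fluid and form the barrier between blood and fluid. Transthyretin, the product of Ttr, is their most abundant secreted protein and the usual marker of the tissue in expression data, and the transcription factor Otx2 is needed to form and keep the epithelium.

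Levels are FPKM, the fragments on a transcript per kilobase of its length, scaled by the size of the library. The depth, estimated from the value of 1 fragment in short genes, was 12200000 to 16200000 fragments per library, and 15318 to 15861 genes reached 1 FPKM. Hippocampal markers were present in every library, with Neurod6 at 43.8 to 163, Zbtb20 at 24.7 to 65.8 and Prox1 at 4.78 to 14.9 FPKM. CX3CL1-ct 1, 2 and 3 were the most alike of all libraries, with a robust SD of the log2 difference over 9148 genes of 0.0928 to 0.12, beside 0.126 for the next pair, WT 2 and 3.

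Over all 12 libraries the genes other than Otx2 were high and low together, and Otx2 went with them only in part. Pearson's correlation (r) of Otx2 with Ttr was 0.698, and 0.862 without CX3CL1-ct 5. Without CAMK 1, CX3CL1-ct 6 and WT 1 together, r was 0.664 for Clic6, 0.682 for Kl and 0.290 for Otx2. Libraries of the same group differed widely. WT 1 was the highest library for 9 of the 10 genes. CAMK 1 was the lowest for 8 and among the lowest 2 for all 10, and CX3CL1-ct 6 was among the lowest 3 for all 10. WT 2, of the same group as WT 1, was among the lowest 3 for 7 genes. None of the 9 genes that could be tested differed between groups in limma's test, beside 0.0606% to 0.454% of all genes in the 3 comparisons. The groups overlapped for all 10, but the share of all genes that overlap is not reported here. That count is therefore a description only. In bulk tissue, fewer epithelial cells and less RNA per cell cannot be told apart.

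Ttr encodes transthyretin, which carries thyroid hormone and retinol-binding protein in blood and cerebrospinal fluid. The gene lies on chromosome 18 at 20665280 to 20674321 (mm10, plus strand). It stood at 2284, 295 and 1120 FPKM in WT 1, 2 and 3, at 96.2, 877 and 654 in CAMK 1, 2 and 3, and at 577, 612, 568, 480, 553 and 146 in CX3CL1-ct 1 to 6. The highest library was thus 23.7 times the lowest, with each group holding at least 1 low library. Among 18439 protein-coding genes WT 1 had Ttr at rank 2, WT 2 at 51, CX3CL1-ct 6 at 196 and CAMK 1 at 402, and the other libraries at 4 to 29. The WT mean was 1233 ± 999 FPKM (SD, n = 3), the CAMK mean 542 ± 402 (n = 3) and the CX3CL1-ct mean 489 ± 174 (n = 6). The locus that the deposited table gives for Ttr spans 116251 bases and also holds Dsg2, so the row may have been built on a wider model than the gene. That of Kcnj13 is also wider than its gene (123794 beside 8367 bases). Those of Clic6 (43110 beside 55508), Enpp2 (81249 beside 113992) and Otx2 (9835 beside 16143) are shorter than the genes.

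Folr1 encodes folate receptor alpha, which takes up folate for transfer into the cerebrospinal fluid (chromosome 7, 101858331 to 101870788, minus strand). It stood at 14.6, 2.39 and 7.04 FPKM in WT 1 to 3, at 0.984, 6.14 and 4.50 in CAMK 1 to 3, and at 3.90, 3.45, 3.33, 4.10, 4.22 and 1.28 in CX3CL1-ct 1 to 6. The high and low libraries were those of Ttr: WT 1 on top, CAMK 1 and CX3CL1-ct 6 at the bottom, and the groups overlapped.

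Aqp1, the water channel of the apical membrane (chromosome 6, 55336432 to 55348555, plus strand), stood at 8.53, 1.40 and 3.92 FPKM in WT, at 1.37, 4.16 and 3.34 in CAMK, and at 3.67, 3.10, 3.49, 3.16, 2.97 and 1.04 in CX3CL1-ct. Its lowest library was CX3CL1-ct 6, with CAMK 1 and WT 2 next. Slc4a5, a sodium bicarbonate cotransporter (chromosome 6, 83219828 to 83304945, plus strand), was the lowest of the 10 on average. It stood at 2.46, 0.129 and 1.25 FPKM in WT, at 0.130, 0.920 and 0.762 in CAMK, and at 0.552, 0.618, 0.509, 0.706, 0.516 and 0.314 in CX3CL1-ct. WT 2 and CAMK 1 were level at the bottom, where the values rest on about 8 and 9 fragments. Clic6, a member of the chloride intracellular channel family (chromosome 16, 92485736 to 92541243, plus strand), stood at 5.16, 1.93 and 2.93 FPKM in WT, at 0.311, 2.53 and 1.98 in CAMK, and at 1.72, 1.68, 1.84, 1.56, 2.30 and 0.552 in CX3CL1-ct. Its WT 2 value lay within the range of the other libraries rather than among the lowest, unlike that of Ttr.

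Kcnj13 encodes the inward rectifier Kir7.1 (chromosome 1, 87386363 to 87394729, minus strand) and stood at 4.37, 0.753 and 3.72 FPKM in WT, at 0.475, 2.94 and 2.20 in CAMK, and at 1.72, 2.02, 1.99, 2.75, 2.46 and 1.21 in CX3CL1-ct. WT 1 and WT 3 were high, and CAMK 1 and WT 2 were below 1. Kcnj13 lies inside Gigyf2 on the opposite strand with overlapping exons, and strand use in the counting is not given in the sources used here, so reads of the 2 genes may be mixed. Kcne2 encodes a small subunit of potassium channels (chromosome 16, 92292389 to 92298129, plus strand) and stood at 6.84, 1.42 and 3.68 FPKM in WT, at 0.722, 3.24 and 2.62 in CAMK, and at 1.82, 2.15, 2.29, 2.596, 2.28 and 1.15 in CX3CL1-ct. Its lowest libraries were CAMK 1, CX3CL1-ct 6 and WT 2, as for Ttr.

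Kl encodes klotho, a co-receptor of FGF23 that is also shed into the fluid (chromosome 5, 150952607 to 150993817, plus strand). It ranged less, at 3.72, 1.39 and 2.57 FPKM in WT, at 0.868, 1.89 and 1.95 in CAMK, and at 1.41, 1.29, 1.68, 1.88, 1.81 and 1.27 in CX3CL1-ct. Enpp2 encodes autotaxin, the secreted enzyme that makes lysophosphatidic acid (chromosome 15, 54838901 to 54952892, minus strand). It stood at 40.3, 13.9 and 27.7 FPKM in WT, at 12.96, 24.2 and 21.9 in CAMK, and at 23.9, 25.6, 25.4, 21.1, 22.3 and 15.5 in CX3CL1-ct. The highest library was 4.28 times the lowest for Kl and 3.11 times for Enpp2, the smallest ranges of the 10, on the same libraries as Ttr. Enpp2 shares exon sequence with Gm26684 on the opposite strand.

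Otx2 (chromosome 14, 48657677 to 48673819, minus strand) stood at 4.02, 2.53 and 3.87 FPKM in WT, at 0.340, 4.85 and 2.72 in CAMK, and at 2.09, 1.33, 2.22, 1.32, 9.21 and 0.554 in CX3CL1-ct. CAMK 1 and CX3CL1-ct 6 were again the lowest, but the highest was CX3CL1-ct 5, a library in which Ttr was near its median. The exons of Otx2 overlap those of Otx2os1 on the opposite strand and of Gm49154 on the same strand, so its value is uncertain to that extent.

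**Figure D1:**
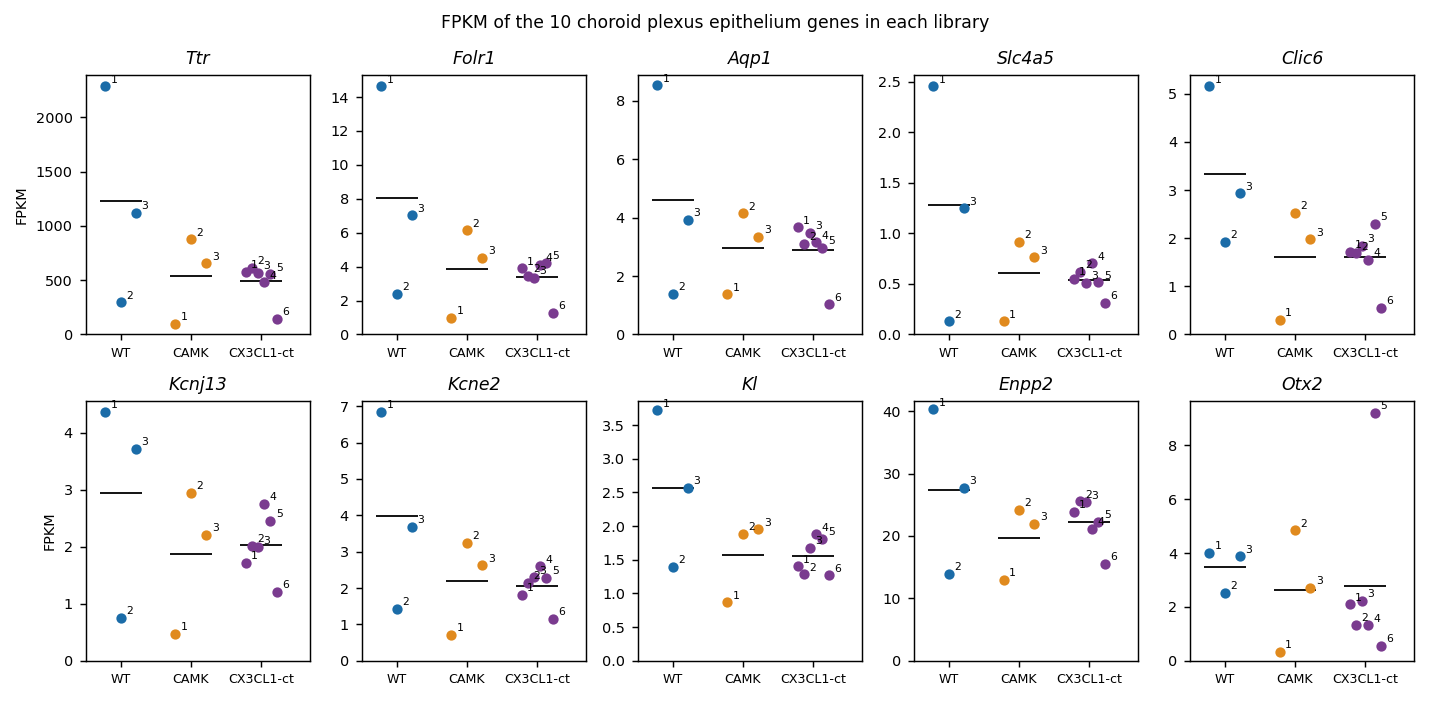
FPKM (y axis, linear from 0) of each of the 10 genes in each library (points, numbered by replicate) (x axis: the 3 groups), with lines at the group mean. WT 1 is the highest point in every panel but that of Otx2, where CX3CL1-ct 5 stands at 9.21.

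Sequence upstream of 6 of the 10 genes is in the RefSeq promoter table (GRCm38.p6), with 10 entries among them. Since most of the genes move together, the 250 bases before the start were searched on both strands. The motifs were TAATCC (or GGATTA on the other strand), the core recognised by Otx2 and related homeodomain factors, and TATAAA (or TTTATA). Windows of 3 genes are printed, those of the channel gene Kcnj13, of Kl, a gene with a small range, and of Otx2, the gene that departs from the rest. Capitals mark a match, and each window is written 5′ to 3′ on the strand of the gene.

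Kcnj13, chr1:87394730-87394979, minus strand: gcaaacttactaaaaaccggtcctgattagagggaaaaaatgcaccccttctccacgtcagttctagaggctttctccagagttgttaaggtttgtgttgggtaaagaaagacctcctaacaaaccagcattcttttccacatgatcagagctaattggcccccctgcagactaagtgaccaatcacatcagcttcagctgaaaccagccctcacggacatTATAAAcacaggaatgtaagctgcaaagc

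Kl, chr5:150952357-150952606, plus strand: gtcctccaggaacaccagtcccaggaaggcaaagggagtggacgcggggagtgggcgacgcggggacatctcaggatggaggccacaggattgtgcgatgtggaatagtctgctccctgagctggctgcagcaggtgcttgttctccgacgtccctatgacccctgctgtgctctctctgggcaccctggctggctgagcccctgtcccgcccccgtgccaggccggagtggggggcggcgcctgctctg

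Otx2, chr14:48667645-48667894, minus strand: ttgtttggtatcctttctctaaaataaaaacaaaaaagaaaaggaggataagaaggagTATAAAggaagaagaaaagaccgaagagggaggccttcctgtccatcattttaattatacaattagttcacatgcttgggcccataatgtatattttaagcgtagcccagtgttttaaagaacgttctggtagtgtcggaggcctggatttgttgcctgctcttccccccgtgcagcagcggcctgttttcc

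The Kcnj13 window holds TATAAA 29 bases before the start and has 45.2% G or C. The printed Otx2 window holds it 192 bases before the start and has 42.0% G or C. The other Otx2 windows do not hold TATAAA and have 48.4% to 53.6% G or C. The start of the printed window's transcript lies outside the deposited locus of Otx2, which ends at 48667513. The Kl window holds neither motif and has 66.8% G or C with 13 CG dinucleotides, beside medians of 52.4% and 6 over all promoters of the table. Over the 10 entries, 1 held TAATCC (in another Otx2 window) and 3 held TATAAA, beside 6.25% and 12.4% of 32851 promoters of the same length. The 10 entries are not independent, since Otx2 and Kcne2 have more than 1 each and windows of Otx2 overlap. The Slc4a5 match is TTTATA 127 bases before the start, in a window that overlaps an exon. The counts are therefore no measure of an excess. A match is a description of letters, and no match says only that these letters are not in this window.

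Whether the genes moved as 1 unit with Ttr was asked by Pearson's r of log2(FPKM + 1) across the 12 libraries, with a two-sided permutation p from 100000 resamples. The r was 0.975 for Folr1, 0.941 for Aqp1, 0.958 for Clic6, 0.956 for Kcne2, 0.9395 for Enpp2 and 0.912 for Kcnj13. It was 0.891 for Slc4a5, 0.881 for Kl and 0.698 for Otx2. All 9 had an unadjusted permutation p under 0.05, a level that 5.92% of 16503 relations reached. The p was 1e-05 for Folr1 and Kcne2, the smallest these resamples can give, and 0.01206 for Otx2. Adjusted over all 16503 relations by the Benjamini-Hochberg method, no gene passed 0.05, where the share called was 0.0%. The lowest adjusted p of the 9 was 0.0660, for Folr1, Clic6 and Kcne2, and the highest was 0.681, for Otx2. The smallest p that the resamples allow limits that adjustment.

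Spearman's rho ordered the genes differently, with Slc4a5 highest and Otx2 again lowest. It was 0.888 for Folr1 (permutation p = 0.00029), 0.895 for Aqp1, 0.902 for Slc4a5 and 0.874 for Kcne2 and Enpp2. It was 0.811 for Clic6 and Kcnj13, 0.818 for Kl and 0.664 for Otx2 (permutation p = 0.02164). Without the libraries farthest from the median of Ttr, CAMK 1 and WT 1, r was 0.965 for Folr1, 0.939 for Aqp1, 0.917 for Kcne2, 0.884 for Clic6, 0.863 for Enpp2, 0.829 for Slc4a5, 0.803 for Kcnj13 and 0.711 for Kl. For Otx2 it was then 0.580 with a permutation p of 0.08366, so the relation of Otx2 did not hold at 0.05 without them. It was 0.567 without CAMK 1 alone and 0.710 without WT 1 alone. Within the 6 CX3CL1-ct libraries r was 0.418 to 0.976 over the 9 genes. There Kl was lowest (0.418), Otx2 was next (0.521) and Aqp1 was highest (0.976). Only Enpp2 had an exact permutation p under 0.05 (r = 0.958, p = 0.00417), and the share of all genes at that level is not reported here. CX3CL1-ct 6 was the lowest of its group for Ttr (146 FPKM) and for Enpp2 (15.5 FPKM). As deviations from the group means, r stayed at 0.866 to 0.976 for the 8 genes other than Otx2, and was 0.667 for Otx2.

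**Figure D2:**
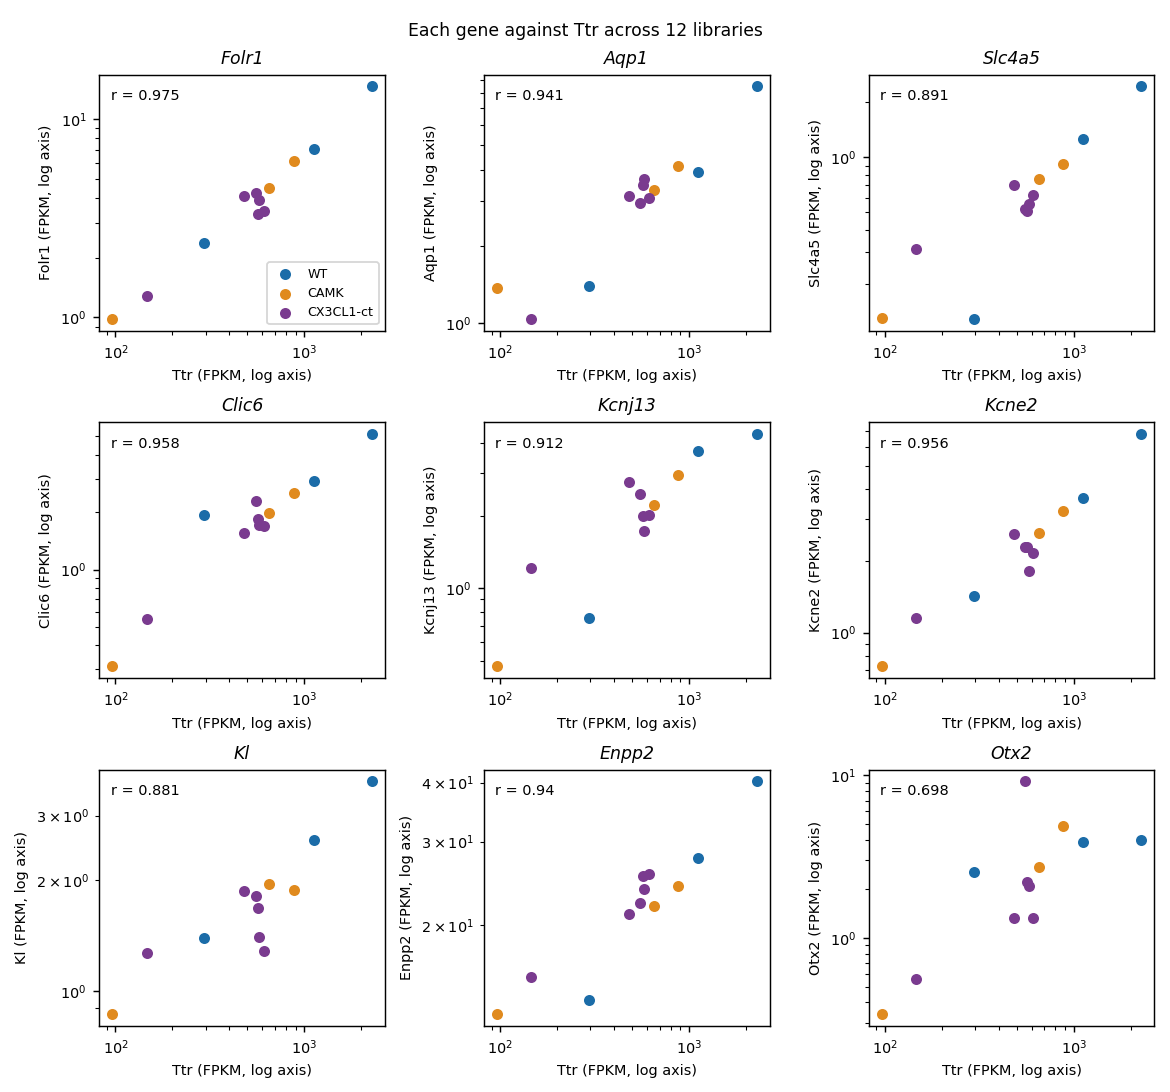
FPKM of each of the 9 other genes (y axes, log) against FPKM of Ttr (x axes, log) in the 12 libraries (points, coloured by group), with Pearson's r of log2(FPKM + 1). The points form a band for 8 genes (r 0.881 to 0.975), and are more scattered for Otx2 (r 0.698), where 1 CX3CL1-ct library lies above the others.

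Among the other genes of the table an r this high was rare. Of 16502 genes, 16 (0.097%) had an r of at least 0.9 with Ttr, and 6 of the 16 were members: Folr1 (rank 1), Clic6 (2), Kcne2 (4), Aqp1 (6), Enpp2 (7) and Kcnj13 (14). Kl ranked 20 and Otx2 134. Slc4a5 is not in that ranking, because it reached 1 FPKM in fewer than 3 libraries. The members also went with each other: over the 36 pairs without Otx2, r ran from 0.825 to 0.983 with a median of 0.916. Over the 9 pairs with Otx2 it ran from 0.478 to 0.784 with a median of 0.6247. The first principal component of the 10 standardised profiles held 87.7% of their variance. These r come from the same 12 libraries, share their depth and scaling, and are a description.

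**Figure D3:**
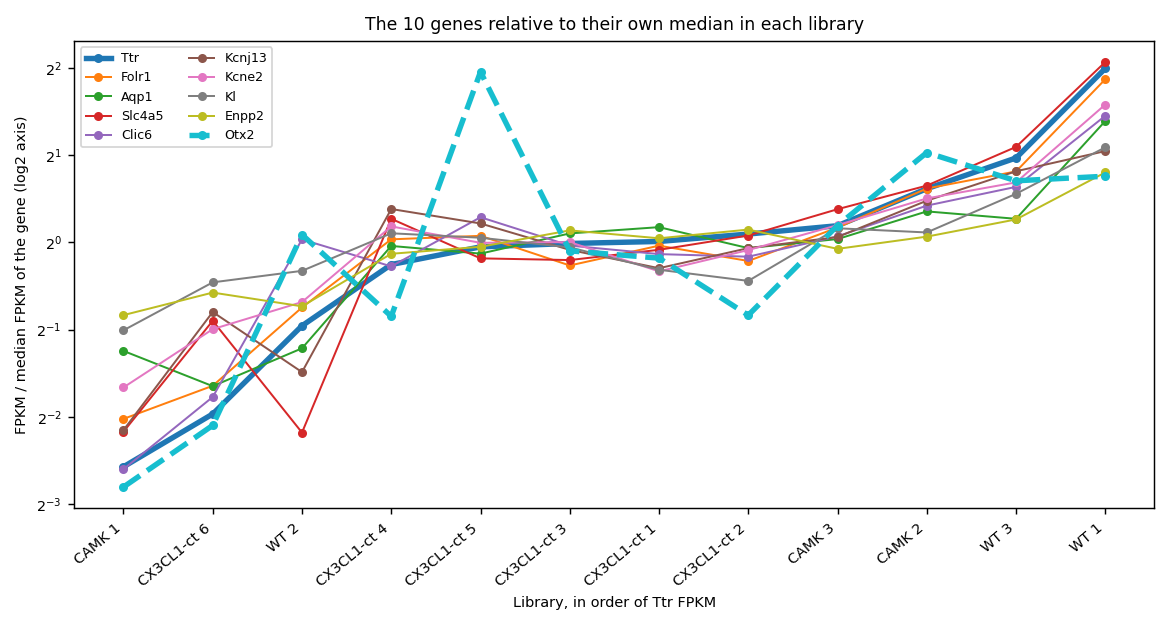
FPKM of each of the 10 genes divided by its own median over the 12 libraries (y axis, log2), with the libraries in order of Ttr (x axis). All lines are higher at WT 1 than at CAMK 1, but not every step rises. Aqp1 falls from CAMK 1 to CX3CL1-ct 6, and Slc4a5, Kcnj13 and Enpp2 fall from there to WT 2. Otx2 (dashed) leaves the other lines most at CX3CL1-ct 5, where it stands at 9.21 FPKM.

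The genes did not change by the same factor. The slope of log2 FPKM against log2 FPKM of Ttr was 0.9004 for Slc4a5, 0.839 for Folr1, 0.837 for Otx2 and 0.826 for Clic6. It was 0.684 for Kcnj13, 0.661 for Kcne2, 0.640 for Aqp1, 0.392 for Kl and 0.349 for Enpp2, where 1 would be a change in proportion to Ttr. On the linear scale the line of Enpp2 against Ttr met the axis at 14.7 FPKM, 64.4% of the mean of Enpp2. That of Kl met it at 0.968 FPKM, 53.4% of its mean, and that of Folr1 at 0.406 FPKM, 8.70% of its mean. For Otx2 the intercept was 1.93 FPKM, 66.0% of its mean, on more scattered points.

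Per 1000 FPKM of Ttr, Folr1 was the steadiest, at 5.64 to 10.2 FPKM, a range of 1.81-fold over libraries in which Ttr itself ranged 23.7-fold. Kcne2 ran from 2.995 to 7.84 and Clic6 from 2.26 to 6.54. Aqp1 ran from 3.50 to 14.3, and Enpp2 from 17.6 in WT 1 to 135 in CAMK 1. For Aqp1, Folr1, Kl and Enpp2 the ratio was highest in CAMK 1, where Ttr was lowest. For Slc4a5, Kcnj13 and Kcne2 it was highest in CX3CL1-ct 6, where Ttr was next lowest. For Otx2 it was 16.7 in CX3CL1-ct 5 and 8.56 in WT 2, and 1.76 to 5.53 in the others.

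The ratio of each gene to Ttr was compared between groups by an exact two-sided permutation test on the log2 ratio, 27 tests in all. The lowest p was that of Aqp1 for CX3CL1-ct against WT, where the ratio was 5.07 to 7.08 per 1000 FPKM of Ttr in CX3CL1-ct and 3.50 to 4.74 in WT. The log2 difference was 0.62 (exact p = 0.0119, the smallest that 6 against 3 can give, and 0.107 adjusted over the 9 ratios of the comparison). With a pseudocount of 1 on both genes the lowest exact p of that comparison was 0.0714. No ratio passed the adjusted threshold of 0.05 in any comparison, and 3 against 3 libraries cannot give an exact p under 0.1.

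**Figure D4:**
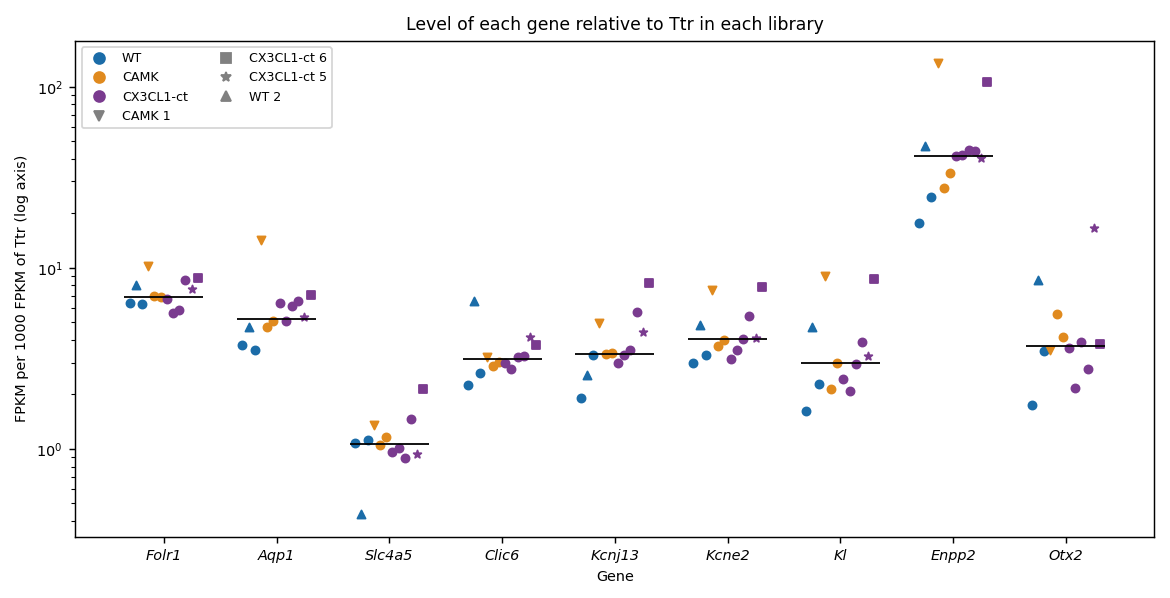
FPKM per 1000 FPKM of Ttr (y axis, log) for each of the 9 other genes (x axis) in each library (points coloured by group, with 4 libraries marked by shape), and lines at the median. Folr1 spans 5.64 to 10.2, the narrowest range, and the star of CX3CL1-ct 5 stands at 16.7 for Otx2.

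CX3CL1-ct against CAMK asks what the transgene changes beyond the driver. 0 of the 9 tested genes passed limma's test (adjusted p under 0.05, Benjamini-Hochberg over 16503 genes), beside 0.0606% of all genes. At an unadjusted p under 0.05 the count was also 0, beside 6.37%. Ttr differed by 0.22 on the log2(FPKM + 1) scale (SE 0.76, limma adjusted p = 0.979). The other 8 differed by -0.01 (Folr1) to 0.20 (Enpp2), with SEs of 0.20 for Kl to 0.54 for Otx2. Only Folr1 was lower in CX3CL1-ct, beside 36.8% of all genes. After median-of-ratios scaling 5 of the 9 were lower, beside 50.4%. Without CAMK 1 the difference of Ttr was -0.76, and without CAMK 2 it was 0.82, so its sign rests on single libraries.

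CX3CL1-ct against WT compares pups with driver and transgene to pups with neither. 0 of 9 passed limma's test over all genes, beside 0.454%, and 0 had an unadjusted p under 0.05, beside 12.3%. With median-of-ratios scaling, with only the 2 groups in the fit, or without CAMK 1, Clic6 and Kl had an unadjusted limma p under 0.05. That is 2 of 9, beside 10.6%, 11.5% and 12.5% of all genes in these settings. Without CAMK 2 or without CX3CL1-ct 5, 1 of the 9 did, beside 12.2% and 17.0%. Without WT 2, 8 of the 9 did, beside 8.34% of all genes, with a lowest limma adjusted p of 0.321 (Kl) and a log2 difference of -1.84 for Ttr. All 9 were lower in CX3CL1-ct, beside 37.3% of all genes (50.8% after median-of-ratios scaling). The 9 genes are correlated, so their signs are not independent of each other. The log2 difference was -1.03 for Ttr (SE 0.76, limma adjusted p = 0.605), -0.83 for Folr1 (SE 0.48, adjusted p = 0.508) and -0.70 for Clic6 (SE 0.33, adjusted p = 0.412). It was -0.57 for Kcne2, -0.52 for Otx2, -0.43 for Kl, -0.35 for Aqp1, -0.25 for Kcnj13 and -0.18 for Enpp2, with limma adjusted p of 0.421 to 0.836. Without WT 1 the difference of Ttr was -0.37, and those of Aqp1, Kcnj13 and Enpp2 turned positive.

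CAMK against WT asks what goes with the driver alone. 0 of 9 passed limma's test, beside 0.358% of all genes, and 0 had an unadjusted p under 0.05, beside 12.4%. All 9 were lower in CAMK, beside 49.4% of all genes. The log2 difference was -1.25 for Ttr (SE 0.88, limma adjusted p = 0.616), -0.82 for Folr1 and -0.79 for Clic6 (SE 0.38, adjusted p = 0.431). The other 6 ran from -0.58 (Kcne2) to -0.36 (Aqp1). Without CAMK 1 the difference of Ttr was -0.27. Without WT 2 it was -2.07, and 7 of the 9 had an unadjusted limma p under 0.05, beside 9.3% of all genes, with a lowest limma adjusted p of 0.324 (Kl). Without CAMK 2 or without CX3CL1-ct 6, 1 of the 9 had such a p, beside 12.0% and 13.3%. This comparison shares its WT libraries with the previous one and its CAMK libraries with the first. Slc4a5, tested only without the filter on low values, had its lowest limma adjusted p, 0.622, when CX3CL1-ct was set against WT.

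A wider list of 30 other genes of the choroid plexus epithelium was read beside the 10, of which 21 passed the filter. Their median r with Ttr was 0.75, 4 reached 0.9 (Cldn2, Wfikkn2, Sostdc1 and Calml4), and the mean of their log2 levels had an r of 0.946. That mean lay between 2.04 and 2.82 in WT libraries, 1.86 and 2.36 in CAMK libraries and 1.93 and 2.42 in CX3CL1-ct libraries, and 0 of the 21 passed limma's test in any comparison. The 4 genes of this list with the highest mean level differed in this. Igf2, a growth factor of epithelium and meninges, had an r of -0.02, Igfbp2 of 0.30 and Vat1l of 0.36, while Slc31a1, a copper transporter, had 0.75.

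Among tested genes outside the 10 with a mean of at least 1 FPKM, with pseudogenes, small RNA genes and predicted genes left out, the 12 most like Ttr were Cldn2 (r = 0.9496), Prr32 (0.936), Wfikkn2 (0.919), Slc4a2 (0.918), Frem1 (0.914), Sostdc1 (0.914), Defb11 (0.912), Sulf1 (0.912), Calml4 (0.905), Cab39l (0.893), Slc25a20 (0.893) and Rhbdd1 (0.890). Cldn2, a tight junction protein, stood at 3.49, 0.785 and 2.15 FPKM in WT, at 0.278, 1.77 and 1.30 in CAMK, and at 0.930, 1.02, 0.992, 1.14, 0.911 and 0.377 in CX3CL1-ct. Its highest and lowest libraries were those of Ttr. Slc4a2, the basolateral anion exchanger, ranged only from 3.66 FPKM in CAMK 1 to 8.04 in WT 1. Defb11 was listed at 0 in CX3CL1-ct 6 and at 14.6 FPKM in WT 1.

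Genes that work with the 10 in the same pathways went less with Ttr. Of 15 tested genes of ion transport and fluid secretion, 1 (Slc4a2) had an r of at least 0.9, with a median of 0.40. Atp1b1, a sodium pump subunit that neurons also make, had an r of 0.09. The median r was 0.05 over 9 genes of retinol and thyroid hormone handling, 0.23 over 11 of folate use, 0.31 over 6 of klotho and FGF signalling, and 0.15 over 8 of lysophosphatidic acid signalling. Plpp1, a phosphatase of lysophosphatidic acid, had an r of 0.75. Over 11 genes of the factors around Otx2 and the cortical hem the median was 0.16, with Gmnc at 0.76 and Msx1 at 0.72. None of these genes passed limma's test in any comparison.

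**Figure D5:**
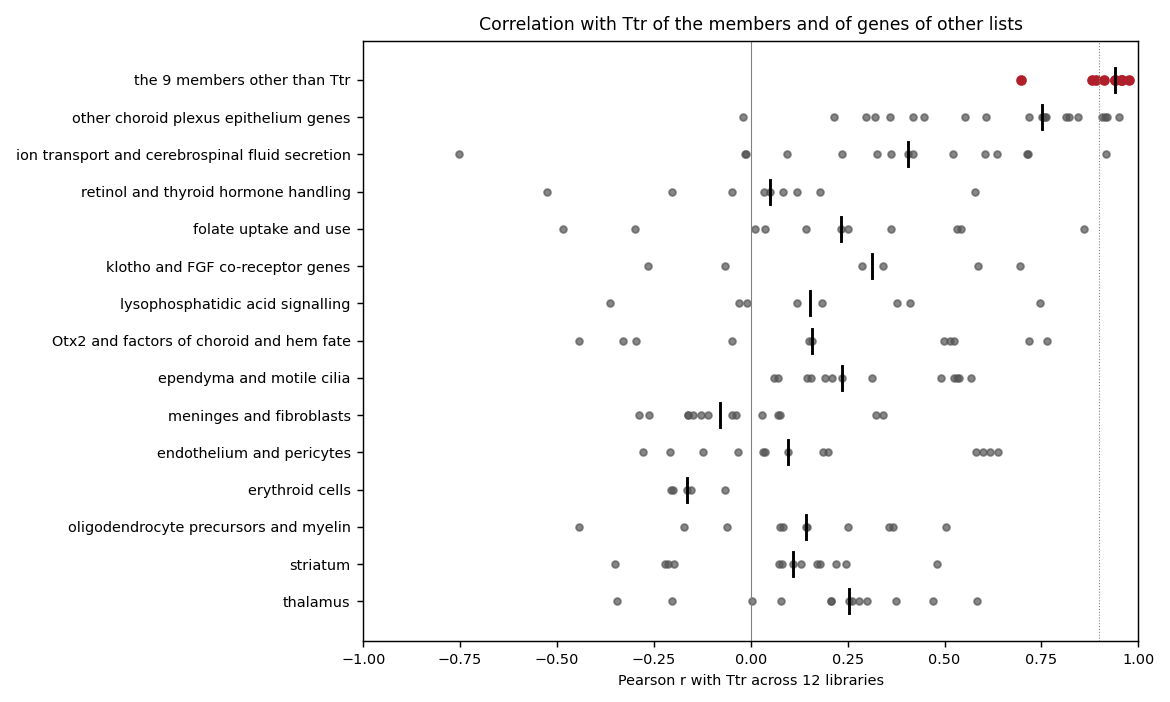
Pearson's r with Ttr across 12 libraries (x axis) of the 9 other members (red, top row) and of the tested genes of each other list (grey rows), with black bars at the medians and a dotted line at 0.9. The members lie at 0.698 to 0.975, the other choroid genes have a median of 0.75, and the medians of the remaining lists are no higher than 0.405.

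Markers of other tissues at the border of the hippocampus were read in the same libraries. Over 13 genes of ependyma and motile cilia, the median r with Ttr was 0.24, over 13 of endothelium and pericytes 0.10, over 5 of erythroid cells -0.16 and over 11 of oligodendrocyte precursors and myelin 0.14. Over 13 genes each of striatum and thalamus it was 0.11 and 0.25. Over 14 genes of meninges and fibroblasts it was -0.08. Of its genes, 6 of the 14 rose in CX3CL1-ct against WT (limma, adjusted p under 0.05 over all genes), beside 0.454% of all genes, and 0 of 14 passed in each of the other comparisons. The 6 include Slc6a13, a GABA transporter (log2 difference 1.69, SE 0.26, adjusted p = 0.0156), and Aldh1a2, a retinoic acid enzyme (1.41, SE 0.22, adjusted p = 0.0164). The mean log2 level of the meninges list was 1.88 to 2.26 in WT libraries, 2.49 to 2.64 in CAMK libraries and 2.55 to 3.39 in CX3CL1-ct libraries, while the choroid genes stood lower in CX3CL1-ct than in WT on average without passing the test. Of the 13 ependyma genes 12 were lower in CX3CL1-ct than in WT (median log2 difference -0.41) and 12 in CAMK than in WT (median -0.37). All 13 striatum genes were lower in both comparisons, with medians of -0.88 and -0.70, and none of these genes passed limma's test. Of all genes, 37.3% were lower in CX3CL1-ct than in WT and 49.4% in CAMK than in WT. Genes of the same list may move together, so these counts are a description only. The WT libraries were also not alike for striatum. Averaged over its genes on the log2 scale, WT 2 stood at 4.20 and WT 3 at 3.80, but WT 1, at 2.00, was the lowest library of all. The part of these shifts in the choroid values was not tested.

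Lists of neighbouring brain regions were also read beside Otx2. The mean log2 level of 13 striatum genes was 4.20 in WT 2, 3.80 in WT 3 and 3.81 in CX3CL1-ct 5, and 2.00 to 2.63 in the other 9 libraries. That of 13 thalamus genes was 3.56 in CX3CL1-ct 5, 3.51 in CAMK 2 and 3.40 in CAMK 3, and 2.46 to 2.93 in the others. Otx2 per 1000 FPKM of Ttr was highest in CX3CL1-ct 5, WT 2 and CAMK 2, each of which was high for at least 1 of these lists. WT 3, as high as CX3CL1-ct 5 for striatum, had 3.46, below the median of 3.71 over the libraries. CAMK 3, high for thalamus, had 4.15, near that median. The lists' part in the Otx2 values was not tested. Without CX3CL1-ct 5 the r of Otx2 with Ttr was 0.862.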

How the data were processed

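RNA of 12 hippocampus libraries (3 WT, 3 CAMK, 6 CX3CL1-ct) was read as stranded total RNA after removal of ribosomal RNA, per the labels' protocols. The values are FPKM as deposited by the authors, 1 table for the series; TopHat, Bowtie, Cufflinks, Cuffdiff and build mm10 are named, per the submitters' processing notes. Versions, strand use and scaling between libraries are not given in the sources used here. Each library was placed in its group, with its number, by its title. The table holds no counts, so depth was estimated from the values of single fragments in short genes, assuming fragments of 180 nt, and low values are the least precise.

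Values were taken as log2(FPKM + 1), which understates changes of low genes. Genes with at least 1 FPKM in at least 3 libraries were tested (16503). limma 3.58.1 in R 4.3.3 fitted the 3 group means to all 12 libraries (eBayes with trend, two-sided, Benjamini-Hochberg over all genes, threshold 0.05). Correlations with Ttr and ratios to Ttr were tested by permutation with Python 3.11.15, pandas 2.3.3, numpy 2.4.6 and scipy 1.17.1. The scripts were tested on simulated data. Coordinates come from GENCODE M21 (mm10) and promoters from RefSeq (GRCm38.p6).

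The 10 genes and the gene lists were chosen with earlier results of these data known. The text names the 10 genes. It also names the 12 genes with the highest r with Ttr (mean FPKM of at least 1, without predicted genes, small RNA genes and pseudogenes). Of each list it may name the 4 genes with the highest mean and up to 4 past the threshold. Gmnc and Msx1 were named after their values were seen, and some genes of the lists are not reported here. CAMK and WT libraries of the same number deviated together from their groups, with correlations over genes of 0.236, 0.163 and 0.100. This meets the rule for pairs. The correlations of CX3CL1-ct with CAMK (0.110, -0.130, -0.0912) and with WT (0.114, -0.0622, 0.0106) do not. The main limma fit and the ratio tests nevertheless took all libraries as unpaired, and only the replicate block used the numbers. Alternatives were the pseudocount, the filter, the scaling, the spread estimate, the libraries in the fit, each library left out, the replicate block, and Spearman's rho.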

Additional observations from a re-analysis of the deposited data

Results flagged for a closer look

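In the group of 6 CX3CL1-ct libraries, 4 values stood apart from the rest by Dixon's criterion, which chance meets in about 1 of 20 groups. CX3CL1-ct 6 was far below the other libraries of its group for Ttr (146 FPKM), Folr1 (1.28 FPKM) and Aqp1 (1.04 FPKM). Since these genes move together, the 3 values are not independent. CX3CL1-ct 5 was far above its group for Otx2 (9.21 FPKM), while its Ttr value of 553 FPKM lay among those of the group.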

How the results depend on the processing

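No member passed limma's test under any of the 19 alternatives of each comparison, and no ratio to Ttr passed the adjusted threshold. For the ratios this was partly fixed in advance. With 6 against 3 libraries, 1 ratio alone at the smallest exact permutation p, 0.0119, has an adjusted p of 0.107. CAMK against WT cannot give an exact p under 0.1. Of all values recomputed, 744 kept their direction and side of the threshold, 5 fell short of it and 41 changed sign. Of the sign changes, 35 were in CX3CL1-ct against CAMK, where the differences with all libraries were smaller than their SEs. There the log2 difference of Folr1 was 0.055 with a pseudocount of 0.1. With median-of-ratios scaling it was -0.024 for Aqp1, -0.016 for Kcne2, -0.011 for Kl and -0.025 for Otx2. With CX3CL1-ct 1 to 3 averaged, an alternative chosen after seeing the data, it was -0.11 for Aqp1 and -0.0041 for Kcne2. With the replicate block (numbers 1 to 3, CX3CL1-ct 4 to 6 left out) the CX3CL1-ct against CAMK difference was 0.092 for Folr1, -0.038 for Kl and -0.11 for Otx2. With that block 0 members passed in each comparison, while the calls over all genes for CAMK against WT went from 59 to 484.

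Leaving out each library in turn, the CX3CL1-ct against CAMK difference ran from -0.76 to 0.82 for Ttr, -0.57 to 0.36 for Folr1, -0.33 to 0.24 for Aqp1, -0.35 to 0.36 for Clic6, -0.25 to 0.46 for Kcnj13, -0.38 to 0.27 for Kcne2, -0.20 to 0.13 for Kl, -0.063 to 0.36 for Enpp2 and -0.60 to 0.47 for Otx2. The lowest were without CAMK 1. Against WT, the CX3CL1-ct difference ran from -0.86 to 0.14 for Aqp1, -0.75 to 0.053 for Kcnj13 and -0.58 to 0.15 for Enpp2. The CAMK difference from WT ran from -0.87 to 0.13 for Aqp1, -0.92 to 0.0057 for Kcnj13 and -0.99 to 0.077 for Otx2. The cause was not tested.

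With all libraries and the permutation p adjusted over all 16503 relations, 0 members passed 0.05, beside 0.0% of all genes. The counts that follow are adjusted over the 9 relations alone, and no share of all genes is reported beside them. So counted, the members that went with Ttr were 9, and 8 without CAMK 1 or without both CAMK 1 and WT 1, where Otx2 fell short (r = 0.567 and 0.580). They were 6 without CAMK 1, CX3CL1-ct 6 and WT 1 together, an alternative added after seeing the data, with r of 0.290 for Otx2, 0.664 for Clic6 and 0.682 for Kl. Low values limit Slc4a5 and Kcnj13 most, at about 8 and 9 fragments in their lowest libraries.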
